A study of Mus musculus with 72 samples.

Results

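The facilitative glucose transporters described here are 9 genes of the SLC2 family, Slc2a1, Slc2a2, Slc2a3, Slc2a4, Slc2a5, Slc2a8, Slc2a9, Slc2a10 and Slc2a12. They were chosen by name, as the entries of the deposited count table whose Ensembl identifiers carry these symbols, and all 9 were found among 55416 genes. RNA sequencing counts were available for 24 male mice of the sighted FVB strain (FVB.129P2), each with a library from epididymal white adipose tissue (eWAT), liver and pituitary, which makes 72 libraries. The mice were offspring of dams fed ad libitum (FED) or of dams whose food was reduced by 20% from embryonic day 15 until weaning (CR20). From 8 weeks of age the offspring ate a control diet with 10% fat (CTRL) or a high fat diet with 45% fat (HFD), for 10 weeks by the study's account of the sequenced mice, which gave the groups FED-CTRL, FED-HFD, CR20-CTRL and CR20-HFD with 6 mice each. All 4 groups shared strain and sex, and no transgene or drug was used. The comparisons ask how a high fat diet and maternal undernutrition, alone and together, were reflected in the transcripts of these transporters. The litter of each mouse was not given, so the p-values measure the spread between these mice.

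Members of the SLC2 family are membrane proteins with many membrane-spanning helices that let hexoses pass down their concentration gradient without using energy, and the protein products are called GLUT with the number of the gene. Cells differ in which family members they make. Adipocytes and muscle fibers hold GLUT4 in vesicles that insulin sends to the cell surface, while hepatocytes carry GLUT2, which has a low affinity for glucose and lets it leave the cell as well as enter. Some members carry other substrates, such as fructose for GLUT5 and urate for GLUT9. Transcript counts give the amount of messenger RNA and do not show where the protein is in the cell.

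RefSeq promoter entries matched 7 of the 9 genes, and Slc2a3 and Slc2a4 had none. The 250 bases before the RefSeq start are shown for 4 genes on which the results turn, because Slc2a2 and Slc2a1 led the transporter transcripts of liver and pituitary and Slc2a5 and Slc2a9 changed in eWAT in opposite directions. Each sequence was read on the strand of its gene, 5′ to 3′, and matched GRCm39 exactly and only at the place given. Capitals mark the motifs GGGCGG and CCAAT, also where they lie on the opposite strand. The motifs CACGTG and TATAAA were searched as well, on both strands, and have no match in these windows. No match of one motif overlapped a match of another.
Slc2a1, chr4:118965692-118965941, plus strand: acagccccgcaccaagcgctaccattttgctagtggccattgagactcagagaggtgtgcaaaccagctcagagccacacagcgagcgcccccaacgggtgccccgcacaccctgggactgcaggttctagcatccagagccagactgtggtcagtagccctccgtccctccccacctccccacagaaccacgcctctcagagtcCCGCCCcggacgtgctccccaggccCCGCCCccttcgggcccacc
Slc2a2, chr3:28751802-28752051, plus strand: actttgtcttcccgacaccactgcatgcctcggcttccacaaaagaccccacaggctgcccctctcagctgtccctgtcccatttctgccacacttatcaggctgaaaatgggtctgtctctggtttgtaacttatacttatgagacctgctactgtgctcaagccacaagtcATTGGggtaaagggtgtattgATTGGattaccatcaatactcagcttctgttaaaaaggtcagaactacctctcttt
Slc2a5, chr4:150203551-150203800, plus strand: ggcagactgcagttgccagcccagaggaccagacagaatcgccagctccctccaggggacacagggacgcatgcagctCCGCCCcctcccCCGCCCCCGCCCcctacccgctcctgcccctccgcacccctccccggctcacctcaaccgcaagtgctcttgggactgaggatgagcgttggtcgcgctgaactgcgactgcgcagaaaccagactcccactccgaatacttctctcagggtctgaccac
Slc2a9, chr5:38640729-38640978, minus strand: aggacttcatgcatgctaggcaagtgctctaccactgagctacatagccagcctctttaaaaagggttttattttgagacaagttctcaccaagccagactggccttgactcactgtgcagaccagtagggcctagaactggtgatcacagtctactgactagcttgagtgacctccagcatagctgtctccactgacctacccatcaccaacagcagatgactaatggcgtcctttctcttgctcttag
The windows of Slc2a1 and Slc2a5 were rich in G and C, at 66.4% each, with 13 and 15 CG pairs, against a median of 52.4% G and C over the promoter windows of all genes. They held 2 and 3 matches of GGGCGG, a motif found in 32.7% of 32851 promoter windows of this length. The window of Slc2a2, at 47.2% G and C with 2 CG pairs, held 2 matches of CCAAT, a motif found in 33.8% of all windows. The window of Slc2a9, at 48.8% G and C with 1 CG pair, held none of the 4 motifs, of which CACGTG occurs in 6.02% and TATAAA in 12.4% of all windows. In GENCODE M39, from which gene spans were taken, the windows of Slc2a5 and Slc2a9 lie within the span of the gene and those of Slc2a1 and Slc2a2 run into its start. A match describes the letters and does not show that a factor binds there.

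The libraries held 11589675 to 22364963 counts in eWAT, 9842813 to 19928212 in liver and 18299494 to 27601208 in pituitary. The floor was set at 3 counts, which stand at 0.109 to 0.305 CPM across these libraries, where CPM is the count divided by the size of the library, and this covers counting error only. The tissue labels matched the markers of each tissue. The summed level of 10 adipocyte markers was 12074 to 44842 CPM in eWAT, that of 10 hepatocyte markers was 78878 to 126210 CPM in liver, and that of 8 pituitary hormone cell markers was 249880 to 366210 CPM in pituitary. A few eWAT libraries touch the results below. The FED-HFD mouse 23 had the lowest adipocyte marker sum, 12074 CPM, and the highest sum of 12 macrophage markers, 11690 CPM, and the CR20-CTRL mouse 5 had an adipocyte sum of 17142 CPM. Transcripts of epididymis and testis were found at 134, 63.1 and 26.7 CPM in the eWAT of CR20-CTRL mice 4 and 5 and CR20-HFD mouse 6, and at 0.311 CPM or less in the other eWAT libraries.

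Each tissue had its own leading transporter. Slc2a4 held 69.0% ± 10.8 (SD, n = 24) of the summed TPM (transcript level scaled by length and library) of the 9 genes in eWAT, Slc2a2 held 69.0% ± 3.82 in liver, and Slc2a1 held 50.1% ± 2.65 in pituitary. TPM was used to order the genes within a tissue. Their summed TPM was 267 ± 51.1 in eWAT, 241 ± 50.0 in liver and 34.8 ± 3.97 in pituitary. These sums do not compare the tissues, since TPM is a share of the library. In pituitary the 8 hormone cell markers alone held 249880 to 366210 CPM.

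In eWAT, the insulin-responsive transporter gene Slc2a4 stood at a mean of 188 ± 51.2 TPM (lowest 28.4, median 192, highest 263 of 24 libraries). Slc2a8, whose protein GLUT8 lies on membranes inside the cell, followed at 29.5 ± 3.85 TPM and overlapped Slc2a4 in range through the library of FED-HFD mouse 23 alone. Slc2a1, which serves basal glucose uptake in many cells, and Slc2a10, whose loss in people causes arterial tortuosity, came next at 15.9 ± 8.61 and 14.9 ± 3.60 TPM, and these neighbours did not differ beyond their spread. Slc2a3, known for glucose uptake by neurons, was at 7.99 ± 2.58 TPM, the urate carrier gene Slc2a9 at 4.33 ± 1.72 TPM, the fructose carrier gene Slc2a5 at 3.01 ± 3.08 TPM and Slc2a12, the gene of another transporter of fat and muscle, at 2.74 ± 1.52 TPM. These last 4 genes overlapped in range with their neighbours. Slc2a2 was listed at 0 in 19 of 24 eWAT libraries and had 3 counts or more in 3.

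In liver, Slc2a2 stood at 167 ± 42.2 TPM (lowest 110, median 162, highest 267), Slc2a9 at 35.5 ± 5.01 TPM (26.4, 35.5 and 47.3) and Slc2a8 at 13.8 ± 2.25 TPM (9.88, 13.9 and 20.9). No library of a higher gene fell into the range of the next among these 3 genes. Slc2a5, Slc2a1 and Slc2a4 followed at 9.97 ± 3.18, 7.32 ± 2.01 and 6.41 ± 5.55 TPM with overlapping ranges. Slc2a3 and Slc2a10 were at 0.249 ± 0.137 and 0.173 ± 0.10 TPM, and Slc2a12 was listed at 0 in 13 of 24 liver libraries.

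In pituitary, Slc2a1 stood at 17.4 ± 2.09 TPM (lowest 14.1, median 16.9, highest 22.6), Slc2a8 at 7.46 ± 0.975 TPM (5.08, 7.20 and 9.57) and Slc2a3 at 3.65 ± 0.556 TPM (2.66, 3.60 and 4.79). Their ranges did not overlap. Slc2a5, Slc2a4, Slc2a10 and Slc2a9 lay close together at 1.74 ± 0.413, 1.44 ± 0.793, 1.39 ± 0.366 and 1.21 ± 0.313 TPM, and Slc2a12 was lowest of the detected genes at 0.510 ± 0.195 TPM. Slc2a2 was listed at 0 in 22 of 24 pituitary libraries and was under 3 counts in all 24.

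**Figure D1:**
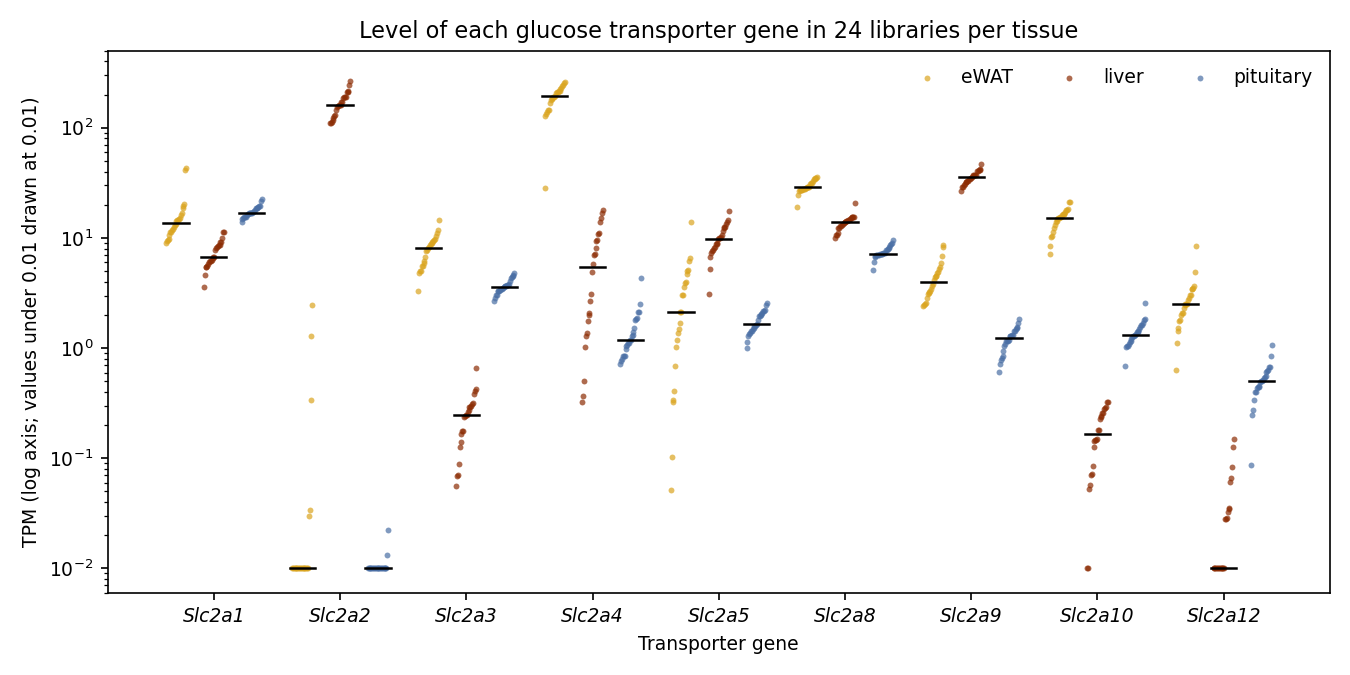
Level of the 9 glucose transporter genes (x axis) in TPM on a log axis (y axis), with 1 point for each of 24 libraries per tissue in order of level, bars at the medians, and values under 0.01 drawn at 0.01. Slc2a4 leads in eWAT with a median of 192 TPM, Slc2a2 in liver with 162 TPM and Slc2a1 in pituitary with 16.9 TPM.

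**Figure D2:**
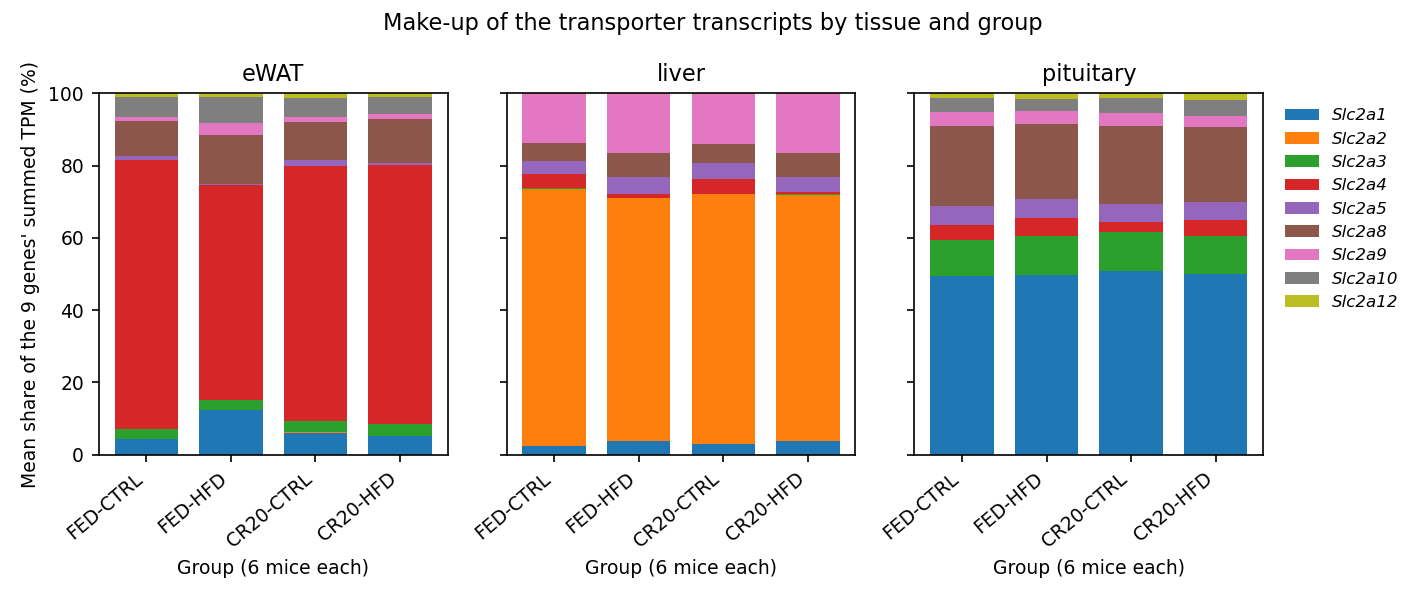
Mean share (y axis, percent) of each gene in the summed TPM of the 9 transporter genes for each group of 6 mice (x axis), with 1 panel per tissue. Slc2a4 takes most of the eWAT bars, Slc2a2 most of the liver bars, and in pituitary Slc2a1 takes a mean of 50.1% over the 24 libraries.

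Differences between tissues were tested in 1 edgeR fit of all 72 libraries, in which a gene was called at an adjusted p under 0.055 with a fold change on the log2 scale (log2FC) of 0.58 or more in size. Of the 9 genes, 7 were called between liver and eWAT (percent of all genes called: 66.1), 6 between pituitary and eWAT (70.3) and 9 between pituitary and liver (76.5). Since most genes differed between these tissues, the counts of the transporters stand near the background. Slc2a2 did not pass the filter on low counts within eWAT or pituitary, nor did Slc2a3, Slc2a10 and Slc2a12 within liver. These genes entered the fit through the tissues where they are high, so their calls against those tissues give no separate support. The sizes of their log2FC are uncertain. Slc2a2, listed at 0 in most eWAT and pituitary libraries, could hardly be called between these 2 tissues. The median gene itself stood 0.22 below 0 on the log2 scale in liver against eWAT and 0.15 above 0 in pituitary against liver.

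Slc2a2 was higher in liver than in eWAT by a log2FC of 13.10 (SE 0.38, adjusted p = 1.59e-35), a size that is uncertain because 19 of 24 eWAT libraries held 0 counts. The fructose and urate carrier genes Slc2a5 and Slc2a9 were also higher in liver, by 3.26 (SE 0.21, adjusted p = 3.75e-23) and 4.20 (SE 0.09, adjusted p = 8.78e-50). Slc2a4 was lower in liver than in eWAT with a log2FC of -4.26 (SE 0.21, adjusted p = 1.52e-29), as were Slc2a3 (-3.94), Slc2a10 (-5.25) and Slc2a12 (-5.49). Slc2a1 and Slc2a8 were not called between liver and eWAT, with log2FC of 0.04 (SE 0.11) and 0.02 (SE 0.06). When libraries were scaled by their totals alone, both stood at -0.73, while the median gene then stood at -0.94, so relative to the median gene they were at 0.27 and 0.24 with the trimmed mean of M-values (TMM) scaling and at 0.20 each with library totals.

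Pituitary exceeded eWAT in Slc2a1 by a log2FC of 1.48 (SE 0.11, adjusted p = 4.94e-20) and had less Slc2a4 (-5.73), Slc2a10 (-2.12), Slc2a12 (-1.09) and Slc2a8 (-0.68). For Slc2a5 the direction between pituitary and eWAT depended on the scale, since its log2FC was 0.95 (SE 0.20, adjusted p = 2.35e-05) but its median was 1.65 TPM in pituitary and 2.12 TPM in eWAT. Slc2a3 showed a log2FC of 0.19 (SE 0.10, adjusted p = 0.0722), and 0.23 with an adjusted p of 0.0289 when the mouse was added as a block, in both cases under the minimum fold. The direction for Slc2a3 depended on the scale as well, since its median was 3.60 TPM in pituitary and 8.12 TPM in eWAT. Between pituitary and liver, Slc2a2 was lower in pituitary (-15.45), as were Slc2a9 (-4.69), Slc2a5 (-2.31) and Slc2a4 (-1.48), while Slc2a12 (4.40), Slc2a3 (4.13), Slc2a10 (3.12) and Slc2a1 (1.44) were higher. Slc2a8, called at -0.70 between pituitary and liver, stood at -0.09 when libraries were scaled by their totals, while the median gene then stood at 0.74. Relative to the median gene, Slc2a8 was at -0.86 with TMM scaling and at -0.84 with library totals.

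The few Slc2a2 reads of eWAT sat in single mice. FED-HFD mouse 10 had 46 counts, CR20-CTRL mouse 5 had 22 and FED-HFD mouse 13 had 8, and the other 2 libraries above 0 had 1 count each. The hepatocyte marker sum in eWAT ranged from 4.37 to 978 CPM, with 876 CPM in mouse 10 and 840 CPM in mouse 5, but also with 978, 904 and 731 CPM in mice 32, 33 and 48, which had 0, 1 and 0 counts of Slc2a2. The part of liver RNA in these reads was not tested further.

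In eWAT, a high fat diet in the offspring of fed dams was accompanied by lower Slc2a3, Slc2a4 and Slc2a5 and higher Slc2a9. Of 9 transporter genes, 8 passed the filter on low counts (all but Slc2a2), and 4 of these were called between FED-HFD and FED-CTRL, where 8.01% of 15964 genes were called. Among the 3 genes called lower, the log2FC ran from -0.92 for Slc2a3 to -2.72 for Slc2a5. The median log2FC of the 8 genes was -0.47, beside -0.00 over all genes tested. In these bulk samples, fewer cells of a type and less RNA per cell cannot be told apart.

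Slc2a4, the gene of the insulin-responsive transporter of adipocytes, was at 257, 269 and 327 CPM (lowest, median and highest of 6 mice, TMM scaled) in FED-CTRL and at 30.8, 167 and 195 CPM in FED-HFD. No FED-HFD mouse reached the lowest FED-CTRL mouse. The log2FC was -0.93 (SE 0.26, adjusted p = 0.0249), and an exact permutation test of the 2 groups, two-sided, gave p = 0.00216, the smallest value that 6 mice against 6 allow. CR20-CTRL mice were at 123, 282 and 298 CPM and CR20-HFD mice at 223, 227 and 251 CPM, so that the CR20-HFD group lay wholly above FED-HFD and wholly below FED-CTRL. The lowest value of FED-HFD was that of mouse 23 and the lowest of CR20-CTRL that of mouse 5, the mice with the lowest adipocyte marker sums. Without these 2 libraries, an alternative chosen after seeing the data, the log2FC was -0.72 (SE 0.08, adjusted p = 0.000132). The call was lost without FED-CTRL mouse 41 (adjusted p = 0.0590) and in a fit of these groups alone (adjusted p = 0.0724).

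Slc2a5, the gene of the fructose carrier, showed the greatest fall of the 8 tested genes. It stood at 2.93, 3.95 and 5.07 CPM in FED-CTRL and at 0.0492, 0.343 and 2.13 CPM in FED-HFD, and the groups did not overlap. Its log2FC was -2.72 (SE 0.66, adjusted p = 0.0104, exact permutation p = 0.00216). Without FED-HFD mouse 40 the log2FC was -3.82, with another mouse left out it reached -2.46, and over the other settings it ran from -3.76 to -2.48, called in each of these fits at the minimum fold of 0.58. FED-HFD libraries held 1, 6 and 42 counts of Slc2a5 (lowest, median and highest), and 2 of them, with the lowest at 0.0492 CPM, lay under the floor of 3 counts. The size of the fall is therefore uncertain. CR20-CTRL mice ranged more widely, with 1.24, 5.14 and 14.4 CPM, and CR20-HFD mice were at 0.336, 1.44 and 3.77 CPM.

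Slc2a3, a gene of high-affinity glucose uptake, stood at 9.35, 16.4 and 19.6 CPM in FED-CTRL and at 5.56, 8.06 and 11.8 CPM in FED-HFD. The groups overlapped, and 5 of 6 FED-HFD mice lay below all FED-CTRL mice. The log2FC was -0.92 (SE 0.22, adjusted p = 0.0090, exact permutation p = 0.00433). Both CR20 groups held levels near those of FED-CTRL, with 9.71, 13.9 and 21.0 CPM in CR20-CTRL and 10.8, 15.0 and 25.3 CPM in CR20-HFD.

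Slc2a9, the gene of the urate carrier, was the 1 member called higher. It stood at 3.38, 3.96 and 4.81 CPM in FED-CTRL and at 5.47, 6.54 and 8.81 CPM in FED-HFD, with no overlap. The log2FC was 0.74 (SE 0.22, adjusted p = 0.0309, exact permutation p = 0.00216). CR20-CTRL mice were at 2.99, 4.58 and 7.91 CPM and CR20-HFD mice at 3.01, 4.19 and 6.46 CPM. The call was lost without FED-HFD mouse 13 or 23 or FED-CTRL mouse 16, 24 or 42, with adjusted p from 0.0554 to 0.0936, and with no filter on low counts (0.0567).

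The other 4 genes tested were not called between FED-HFD and FED-CTRL. Slc2a1 was at 12.6, 13.9 and 15.9 CPM in FED-CTRL and at 11.6, 17.2 and 41.7 CPM in FED-HFD, with a log2FC of 0.52 (SE 0.29, adjusted p = 0.259). Slc2a8 was at 33.7, 35.6 and 39.1 CPM against 20.7, 31.8 and 38.0 CPM (log2FC -0.21, SE 0.10, adjusted p = 0.198). For Slc2a10 and Slc2a12 the log2FC were -0.34 (SE 0.19, adjusted p = 0.260) and -0.60 (SE 0.36, adjusted p = 0.310). The exact permutation p, unadjusted, was 0.106 for Slc2a1, 0.04545 for Slc2a8, 0.0476 for Slc2a10 and 0.00649 for Slc2a12. In FED-HFD the highest Slc2a1 and the lowest Slc2a8, Slc2a10 and Slc2a12 were all those of mouse 23.

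Markers of other cells moved along with these genes. Of 12 macrophage markers, 9 were called higher in FED-HFD than in FED-CTRL and 10 were lower, and called, in CR20-HFD compared with FED-HFD. Their summed level was 1500 to 2168 CPM in FED-CTRL, 2296 to 11690 CPM in FED-HFD, 1097 to 2495 CPM in CR20-CTRL and 1247 to 2185 CPM in CR20-HFD, and no marker of the list was at 0. Of 10 adipocyte markers, edgeR called none between FED-HFD and FED-CTRL and 2 higher in CR20-HFD than in FED-HFD, and of 8 endothelial markers 4 were called higher in the latter comparison. The adipocyte sums were 32039 to 36949 CPM in FED-CTRL, 12074 to 34051 CPM in FED-HFD, 17142 to 44842 CPM in CR20-CTRL and 36197 to 39656 CPM in CR20-HFD. The part of cell makeup in the transporter differences was not tested. Without FED-HFD mouse 23 and CR20-CTRL mouse 5 the same 4 transporter genes, at -0.90 for Slc2a3, -0.72 for Slc2a4, -2.48 for Slc2a5 and 0.65 for Slc2a9, were called between FED-HFD and FED-CTRL.

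**Figure D3:**
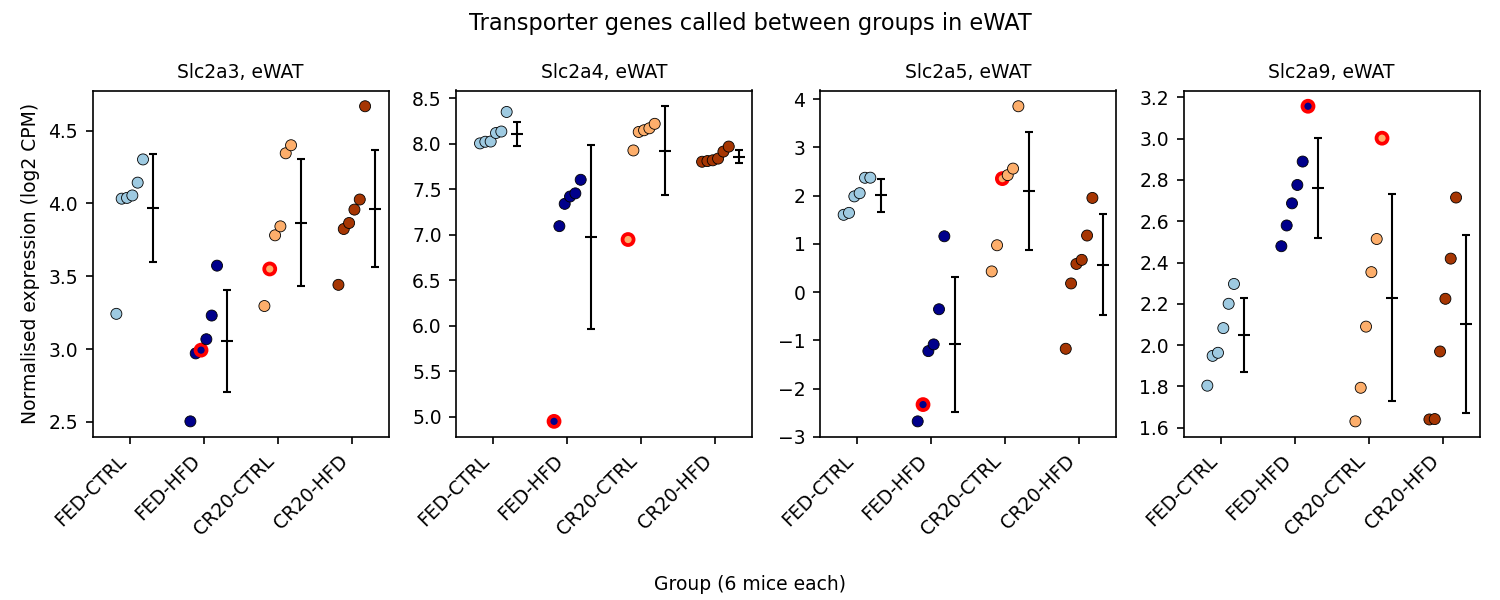
Normalised expression (y axis, log2 CPM) of Slc2a3, Slc2a4, Slc2a5 and Slc2a9 in eWAT for the 4 groups (x axis), with 1 point per mouse, and red rims on FED-HFD mouse 23 and CR20-CTRL mouse 5. The FED-HFD points of Slc2a4 and Slc2a5 lie below all FED-CTRL points and those of Slc2a9 above them.

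On the high fat diet, the eWAT of CR20 offspring held more Slc2a3 and less Slc2a9 than that of FED offspring. These were 2 of 8 tested members called between CR20-HFD and FED-HFD, where 9.73% of all genes were called. This comparison uses the same FED-HFD mice as the comparison with FED-CTRL, so that low or high values in those mice enter both. For Slc2a3 the log2FC was -0.92 in FED-HFD against FED-CTRL and 0.93 in CR20-HFD against FED-HFD (SE 0.22, adjusted p = 0.0062, exact permutation p = 0.00433). For Slc2a9 it was 0.74 and -0.64 (SE 0.22, adjusted p = 0.0481, exact permutation p = 0.0108). The Slc2a9 call in CR20-HFD against FED-HFD was lost without any 1 of 12 mice (FED-CTRL 14, 15, 16 and 24, FED-HFD 12, 13 and 23, CR20-CTRL 47, and CR20-HFD 7, 31, 32 and 46), with adjusted p from 0.0551 to 0.132. It was also lost with no filter on low counts (adjusted p = 0.0829), with the animal-number range as covariate (0.0670), in a fit of the compared groups alone (0.0605) and without the 2 libraries low in adipocyte markers (log2FC -0.55, adjusted p = 0.0592).

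Slc2a4 differed in the same comparison by a log2FC of 0.68 (SE 0.26, adjusted p = 0.0813) and was not called, although the 6 CR20-HFD mice lay above the 6 FED-HFD mice (exact permutation p = 0.00216). It was called without CR20-CTRL mouse 5 (log2FC 0.67, adjusted p = 0.0469). Without FED-HFD mouse 23 its log2FC was 0.47, and without both of these libraries 0.47 (adjusted p = 0.000654), in each case under the minimum fold. Slc2a8 had an adjusted p of 0.0205 with a log2FC of 0.37 (SE 0.10), under the minimum fold. Slc2a5 showed 1.49 (SE 0.66, adjusted p = 0.129) and was called without FED-HFD mouse 40 (log2FC 2.60, adjusted p = 0.00977). Slc2a1, Slc2a10 and Slc2a12 were at -0.43, -0.12 and 0.45 with adjusted p of 0.329 or more.

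Within the CR20 offspring, edgeR called none of the 8 members between CR20-HFD and CR20-CTRL, where 0% of all genes were called. An unadjusted p under 0.05 was found for 1 member, beside 6.03% of all genes. That member was Slc2a5, with a log2FC of -1.71 (SE 0.61, p = 0.010, adjusted p = 0.789 by edgeR, exact permutation p = 0.0368). Between CR20-CTRL and FED-CTRL edgeR called none of the 8 (0% of all genes), with 0 at an unadjusted p under 0.05 (7.39% of all genes) and log2FC of at most 0.48 in size. DESeq2 and limma voom, with and without quality weights, called 0 members in both comparisons. A diet effect that differed between the maternal groups was tested as an interaction, which called none of the 8 members by edgeR beside 2.42% of all genes. An unadjusted p under 0.05 was found for 4 members, beside 18.2% of all genes. The interaction log2FC was 1.01 for Slc2a3 (SE 0.31, adjusted p = 0.0775), -0.89 for Slc2a9 (SE 0.31, adjusted p = 0.124), 0.81 for Slc2a4 (SE 0.37, adjusted p = 0.250) and 0.36 for Slc2a8 (SE 0.15, adjusted p = 0.198). Slc2a3 passed in DESeq2 (adjusted p = 0.0349), and in edgeR without FED-CTRL mouse 24, FED-HFD mouse 40 or CR20-CTRL mouse 33 or 48 (adjusted p from 0.0385 to 0.0546), while limma voom called none.

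Averaged over the maternal groups, Slc2a5 was lower on the high fat diet in eWAT, with a log2FC of -2.21 (SE 0.45, adjusted p = 0.0384), 1 of 8 members called beside 0.175% of all genes. In the separate maternal groups its log2FC were the -2.72 and -1.71 given above. The averaged call was lost without any 1 of 13 of them (FED-CTRL 14, 15, 16, 41 and 42, FED-HFD 12 and 13, CR20-CTRL 33, 47 and 49, and CR20-HFD 6, 7 and 45), with adjusted p from 0.0559 to 0.0829. Slc2a4 and Slc2a3 stood at -0.53 (adjusted p = 0.151) and -0.42 (adjusted p = 0.168), and limma voom with quality weights called Slc2a3 as well. For CR20 against FED averaged over diets edgeR called none of the 8 members beside 3.96% of all genes, and DESeq2 and limma voom called 0. By edgeR 3 members had an unadjusted p under 0.05, beside 24.3% of all genes. Slc2a3 was at 0.43 (adjusted p = 0.0898) and Slc2a5 at 0.99 (adjusted p = 0.170), which was called without FED-HFD mouse 40 (log2FC 1.54, adjusted p = 0.0254).

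**Figure D4:**
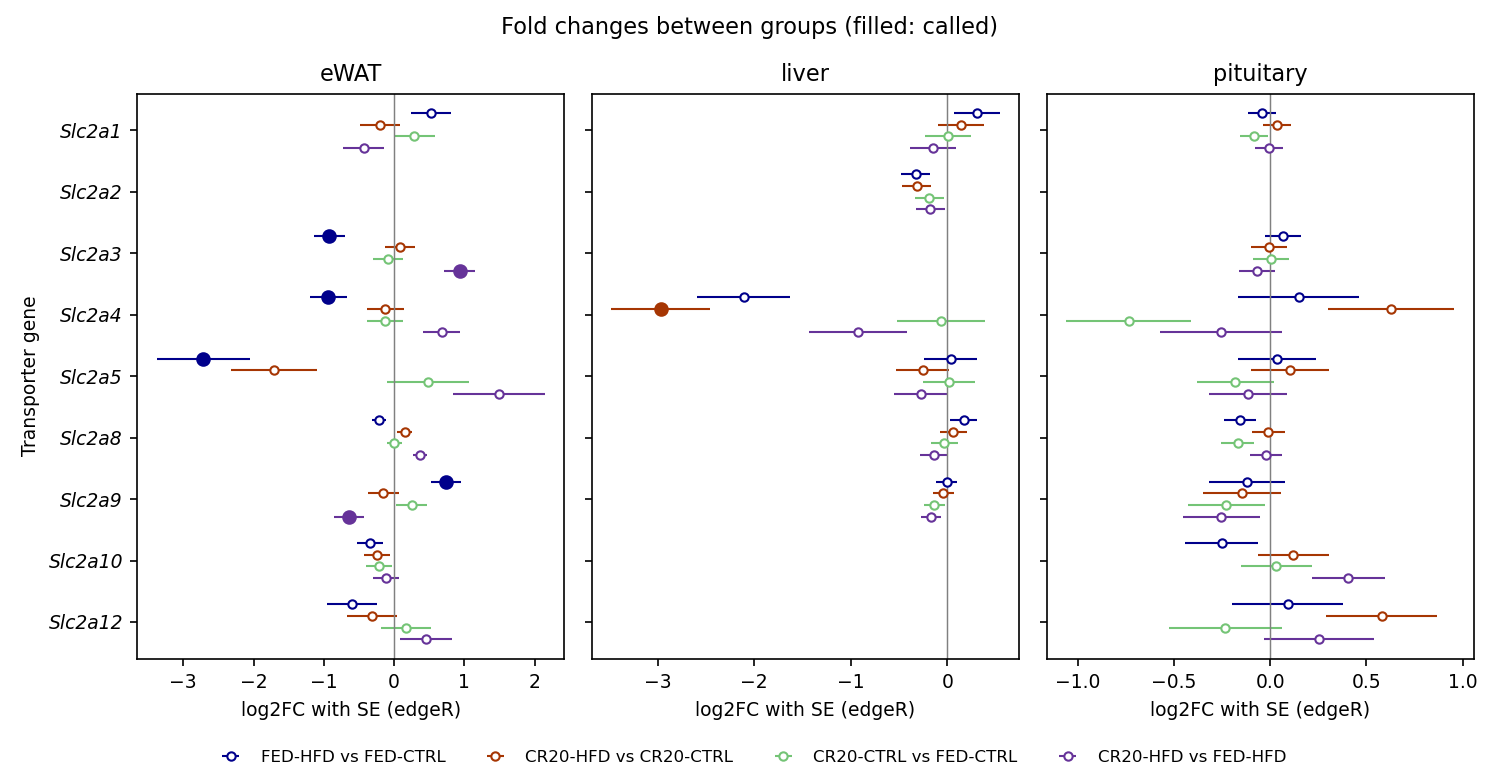
Log2FC with its SE (x axis, edgeR) of each transporter gene (y axis) for the comparisons between groups, with 1 panel per tissue, filled where called. In eWAT, Slc2a5 at -2.72 and Slc2a3 at -0.92 lie left of 0 in FED-HFD against FED-CTRL, and in liver Slc2a4 lies at -2.97 in CR20-HFD against CR20-CTRL.

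The share of Slc2a4 among the transporter transcripts of eWAT had a median of 74.5% in FED-CTRL, 65.3% in FED-HFD (lowest 25.6%, highest 69.7%), 74.6% in CR20-CTRL (51.0% to 77.1%) and 71.8% in CR20-HFD. Slc2a4 was the leading member in every group median. The 25.6% belonged to FED-HFD mouse 23, in which Slc2a1 took 38.4%.

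Other genes of sugar transport and use were described from lists. Among the other SLC2 genes and sodium-coupled glucose transporters, 2 of 10 genes passed the filter in eWAT. Both were called between FED-HFD and FED-CTRL, where 8.01% of all genes were called. Slc2a13, the gene of a proton-coupled inositol carrier, stood at 2.84, 4.72 and 6.45 CPM in FED-CTRL and at 1.23, 1.88 and 2.62 CPM in FED-HFD, with no overlap (log2FC -1.28, SE 0.22, adjusted p = 0.00297). In CR20-HFD against FED-HFD it was at 0.89 (SE 0.22, adjusted p = 0.00925). Slc2a6, the gene of GLUT6, a transporter of lysosomal membranes, stood at 2.52, 6.56 and 9.45 CPM in FED-CTRL and at 7.08, 15.5 and 21.4 CPM in FED-HFD (log2FC 1.19, SE 0.37, adjusted p = 0.0429).

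Of the 9 genes listed for the phosphorylation of glucose, fructose and its products, 6 passed the filter in eWAT. Between FED-HFD and FED-CTRL, 1 was called higher and 1 lower, beside 8.01% of all genes called. Hk3, a hexokinase gene of myeloid cells, was at 13.2, 26.0 and 27.1 CPM in FED-CTRL and at 45.8, 84.9 and 310 CPM in FED-HFD (log2FC 2.27, SE 0.37, adjusted p = 0.00297). Hk2, the hexokinase gene of insulin-sensitive tissues, fell from a median of 191 to 120 CPM (log2FC -0.75, SE 0.21, adjusted p = 0.0245). In CR20-HFD against FED-HFD, Hk3 was at -2.45 (SE 0.38, adjusted p = 0.000601), and its interaction log2FC was -2.41 (SE 0.52, adjusted p = 0.0322). The macrophage marker sums given above moved with Hk3.

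All 18 genes of the vesicle that stores GLUT4 and of its docking were tested in eWAT, and 1 was called in FED-HFD against FED-CTRL (beside 8.01% of all genes), Lrp1, a large endocytic receptor found on these vesicles and on many other cells (log2FC 0.68, SE 0.15, adjusted p = 0.0068), where it was higher. In CR20-HFD against FED-HFD (9.73% of all genes), 2 were called lower, Lrp1 (-0.65, SE 0.15, adjusted p = 0.0060) and Tbc1d1, a Rab GTPase-activating protein gene (-0.90, SE 0.28, adjusted p = 0.0332). From the insulin receptor to AKT, edgeR called 0 of 14 genes in any of the 7 comparisons of any tissue. Of 19 genes known to regulate transporter genes or their surface level, 14 were tested in eWAT and none was called there. The share of all genes called in these comparisons ran from 0% to 9.73%, so few or no calls would be the background for lists this short.

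In liver, the high fat diet went with less transcript of Slc2a4, a gene made there at a level far below that of eWAT. Of the 6 members that passed the filter, 1 was called in CR20-HFD against CR20-CTRL, where 0.522% of 13787 genes were called, and 1 averaged over the maternal groups, where 1.26% were called. It was Slc2a4 in both. In FED-HFD against FED-CTRL edgeR called none of the 6 (0.109% of all genes), with 2 at an unadjusted p under 0.05 (6.66% of all genes).

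Liver Slc2a4 stood at 7.65, 14.8 and 28.8 CPM (lowest, median and highest of 6) in FED-CTRL, at 0.58, 2.80 and 9.99 CPM in FED-HFD, at 10.2, 16.6 and 24.4 CPM in CR20-CTRL and at 0.564, 2.05 and 4.11 CPM in CR20-HFD. The CR20 groups did not overlap, and in the FED groups 5 of 6 HFD mice lay below all CTRL mice. The log2FC was -2.97 in the CR20 offspring (SE 0.51, adjusted p = 0.0042, exact permutation p = 0.00216) and -2.11 in the FED offspring (SE 0.48, adjusted p = 0.115, exact permutation p = 0.00433). Averaged over both it was -2.54 (SE 0.35, adjusted p = 0.00013). The diet effects of the maternal groups differed by -0.86 (SE 0.68, adjusted p = 0.999). In the FED offspring DESeq2 (adjusted p = 0.00544), limma voom with (0.0380) and without quality weights (0.0534) and a fit with no filter on low counts (0.0546) called Slc2a4, and so did edgeR without FED-HFD mouse 10 (log2FC -2.70, adjusted p = 0.0182). The share of Slc2a4 among the liver transporter transcripts had a median of 3.35% in FED-CTRL, 0.918% in FED-HFD, 4.04% in CR20-CTRL and 0.663% in CR20-HFD.

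Markers of tissues that make much GLUT4 were low in these livers. The adipocyte marker sums were 46.2 to 128 CPM in FED-CTRL, 90.6 to 158 CPM in FED-HFD, 37.9 to 119 CPM in CR20-CTRL and 54.3 to 181 CPM in CR20-HFD, with edgeR calling 0 of 10 markers between groups, and the sum of 10 skeletal muscle markers was 0.522 to 1.83 CPM with 3 markers at 0 in every library. The 5 genes whose liver levels were most like those of Slc2a4 over the 24 libraries were Enpep (Pearson r = 0.92, and 0.78 after subtracting the group means), Elovl6 (0.90), Pygl (0.90), Shmt1 (0.90) and Pklr (0.89), where all values come from the same libraries and the groups differ in diet.

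Slc2a2, the gene of the hepatocyte glucose transporter, was at 364, 390 and 471 CPM in FED-CTRL, 249, 306 and 397 CPM in FED-HFD, 268, 331 and 469 CPM in CR20-CTRL and 222, 288 and 315 CPM in CR20-HFD. The groups compared with each other overlapped. Its log2FC with diet was -0.33 (SE 0.15, adjusted p = 0.710, exact permutation p = 0.0454) in the FED and -0.32 (SE 0.15, adjusted p = 0.517, exact permutation p = 0.0714) in the CR20 offspring, and it was not called, also not when averaged (-0.32, SE 0.11, adjusted p = 0.141). Slc2a9 stood at medians of 56.3, 54.3, 51.9 and 50.9 CPM in FED-CTRL, FED-HFD, CR20-CTRL and CR20-HFD, Slc2a8 at 20.3, 22.8, 20.5 and 20.4 CPM, Slc2a5 at 12.4, 13.5, 12.6 and 8.97 CPM and Slc2a1 at 8.95, 11.9, 7.21 and 9.84 CPM. None of these 4 genes had an unadjusted p under 0.05 in any of the 7 liver comparisons by edgeR, where 1.76% to 13.2% of all genes did. The exact permutation p of Slc2a9, unadjusted, was 0.0411 in CR20-CTRL against FED-CTRL.

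Maternal undernutrition left no called member in liver. The tools edgeR, DESeq2 and limma voom called 0 of 6 in CR20-CTRL against FED-CTRL (0% of all genes by edgeR), in CR20-HFD against FED-HFD (0%), in the interaction (0%) and in CR20 against FED averaged over diets (0%). No member had an unadjusted p under 0.05 in these 4 comparisons by edgeR, where 1.76% to 4% of all genes did. The largest log2FC in size was that of Slc2a4 in CR20-HFD against FED-HFD, at -0.92 (SE 0.51, adjusted p = 1.00).

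A few genes of the lists of sugar use and transporter regulation were lower in liver on the high fat diet. Of 17 glycolysis genes, all tested, 1 was called, Pklr, the liver pyruvate kinase, at a median of 357, 106, 296 and 122 CPM in FED-CTRL, FED-HFD, CR20-CTRL and CR20-HFD, with a log2FC of -1.34 in the CR20 offspring (SE 0.30, adjusted p = 0.0431) and -1.39 averaged (SE 0.21, adjusted p = 0.00048). Of 18 tested regulators, 1 was called, Srebf1, a lipogenic transcription factor gene, at -1.18 averaged (SE 0.24, adjusted p = 0.00694). Of 8 tested phosphorylation genes, 1 was called, Tkfc, which phosphorylates the trioses made from fructose, at -0.77 averaged (SE 0.20, adjusted p = 0.0423). The 18 GLUT4 vesicle genes and the 14 genes from the insulin receptor to AKT held 0 called genes in liver by edgeR. Of all genes, 0.522% were called in the CR20 offspring and 1.26% when averaged, the largest share of any liver comparison. Lists this short would hold few or no called genes at that background.

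**Figure D5:**
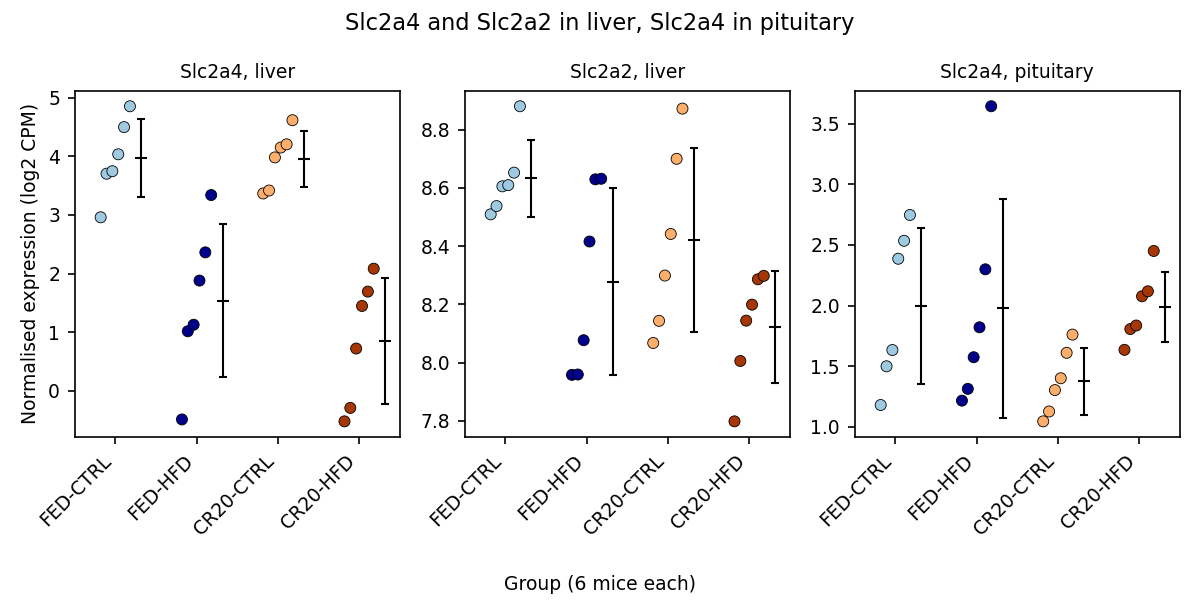
Normalised expression (y axis, log2 CPM) of Slc2a4 and Slc2a2 in liver and of Slc2a4 in pituitary for the 4 groups (x axis), with 1 point per mouse. Liver Slc2a4 is low in both HFD groups, with medians of 2.80 and 2.05 CPM against 14.8 and 16.6 CPM in the CTRL groups, and the 4 pituitary groups overlap.

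In pituitary no transporter gene was called. Of the 8 members tested (all but Slc2a2), edgeR, DESeq2 and limma voom called 0 in each of the 7 comparisons, and few genes of any kind were called by edgeR (0% in FED-HFD against FED-CTRL, 0% in CR20-HFD against CR20-CTRL, 0% in CR20-CTRL against FED-CTRL, 0% in CR20-HFD against FED-HFD, 0% in the interaction, 0.006% for HFD averaged and 0% for CR20 averaged, of 16657 genes). By edgeR, an unadjusted p under 0.05 was found for 1 member in CR20-CTRL against FED-CTRL (17.3% of all genes), 1 in CR20-HFD against FED-HFD (6.77%) and 1 in CR20 averaged over diets (13.2%). It was found for 0 in the other 4 comparisons, where 6.23% to 11% of all genes had such a p.

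Slc2a1, the leading transporter gene of the pituitary, varied little, with 40.4, 42.9 and 45.2 CPM in FED-CTRL, 38.2, 41.6 and 46.4 CPM in FED-HFD, 35.8, 41.1 and 43.9 CPM in CR20-CTRL and 35.8, 41.0 and 47.1 CPM in CR20-HFD. Its log2FC lay between -0.08 (CR20-CTRL against FED-CTRL, SE 0.07) and 0.03 (CR20-HFD against CR20-CTRL, SE 0.07) in the 4 comparisons of groups. Slc2a3 had medians of 13.8, 14.1, 14.3 and 14.2 CPM in the same order of groups, and Slc2a8 of 22.0, 19.8, 19.7 and 18.9 CPM.

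Slc2a4 in pituitary was at 2.17, 4.07 and 6.62 CPM in FED-CTRL, 2.23, 3.16 and 12.4 CPM in FED-HFD, 1.97, 2.46 and 3.30 CPM in CR20-CTRL and 3.02, 3.80 and 5.37 CPM in CR20-HFD, with overlapping groups. It was lower in CR20-CTRL than in FED-CTRL by a log2FC of -0.74 (SE 0.33, p = 0.0312, adjusted p = 0.241 by edgeR, exact permutation p = 0.0671), which did not pass. Between CR20-HFD and CR20-CTRL its log2FC was 0.63 (SE 0.33, p = 0.0638, adjusted p = 0.716 by edgeR, exact permutation p = 0.00433), also not called, and 5 of 6 CR20-HFD mice lay above all CR20-CTRL mice. The 12.4 CPM belonged to FED-HFD mouse 10, whose pituitary adipocyte marker sum was 365 CPM, against 117 to 168 CPM in the other 23 pituitaries. Slc2a10 differed between CR20-HFD and FED-HFD by 0.41 (SE 0.19, adjusted p = 0.726, exact permutation p = 0.00866), with 2.54, 2.70 and 3.46 CPM against 1.63, 2.15 and 2.63 CPM. Slc2a5, Slc2a9 and Slc2a12 had group medians of 3.14 to 4.16, 2.55 to 3.68 and 1.37 to 1.97 CPM. The exact permutation p, unadjusted, was 0.0346 for Slc2a12 in CR20-HFD against CR20-CTRL and 0.0476 for Slc2a8 in CR20-CTRL against FED-CTRL.

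Over the 24 eWAT libraries, the transporter genes followed each other in part. The log2 CPM of Slc2a4 went with that of Slc2a8 (Pearson r = 0.77, and 0.74 after subtracting group means) and against Slc2a1 (-0.77 and -0.79), and Slc2a9 went with Slc2a1 (0.73 and 0.74) and against Slc2a3 (-0.70 and -0.45). The genes most like Slc2a4 were Gpt2 (0.97) and Cdo1 (0.97), then Myorg, Laptm4b and St3gal3 (0.96, 0.95 and 0.95), those most like Slc2a3 included Ldaf1 (0.89), Ankrd46, Hsd11b1 and Gde1 (0.85, 0.84 and 0.83), those most like Slc2a5 were Aqp11 (0.92), Oscp1 (0.88), Cyp2d22, Smtnl2 and Acy1 (0.88, 0.85 and 0.84), and those most like Slc2a9 were Npl, Rin2, Scarb2, Cacna1d and Degs2 (0.86 to 0.87). The points share libraries and group structure, and FED-HFD mouse 23 lies at the end of several of these relations.

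The genes lie on GRCm39 at chromosome 4, 118965908 to 118996365 (Slc2a1, ENSMUSG00000028645, plus strand), chromosome 3, 28752051 to 28785508 (Slc2a2, ENSMUSG00000027690, plus), chromosome 6, 122704768 to 122778599 (Slc2a3, ENSMUSG00000003153, minus), chromosome 11, 69831006 to 69839070 (Slc2a4, ENSMUSG00000018566, minus) and chromosome 4, 150196268 to 150228931 (Slc2a5, ENSMUSG00000028976, plus). The others lie at chromosome 2, 32861636 to 32872231 (Slc2a8, ENSMUSG00000026791, minus), chromosome 5, 38506616 to 38660486 (Slc2a9, ENSMUSG00000005107, minus), chromosome 2, 165345336 to 165361838 (Slc2a10, ENSMUSG00000027661, plus) and chromosome 10, 22520279 to 22581589 (Slc2a12, ENSMUSG00000037490, plus). Slc2a1 and Slc2a5 share chromosome 4, and Slc2a8 and Slc2a10 share chromosome 2. Exons of 4 members share bases with a gene of the count table on the opposite strand, which are 2141 bases of Slc2a12 and Tbpl1, 249 of Slc2a1 and Gm12868, 242 of Slc2a4 and Ybx2 and 8 of Slc2a5 and Gm13093. The strand setting of the counting is not given in the sources used here, so reads of these parts are uncertain. Tbpl1 stood at medians of 12.3, 5.89 and 14.6 CPM in eWAT, liver and pituitary and Ybx2 at 5.87, 0.0694 and 1.08 CPM, while Gm12868 was at a median of 0 in all 3 tissues.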

How the data were processed

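Raw counts per gene were deposited by the authors, who trimmed reads with Trimmomatic, aligned them to GRCm39 (Ensembl release 104) with STAR and counted with featureCounts of Subread. A stranded total RNA kit and an mRNA kit are both named, and the strand setting is not given in the sources used here. Liver RNA for sequencing was extracted by another method than eWAT and pituitary RNA, so extraction and tissue cannot be told apart. Gene names came from GENCODE M39, which matched 54749 of 55416 identifiers and left 667 unmatched.

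The 9 members, the gene lists and the tests were chosen with earlier results of these data known. Within each tissue, genes that passed filterByExpr were scaled by TMM and tested with edgeR's quasi-likelihood test (edgeR 4.0.16, R 4.3.3) fitted jointly to the 24 libraries of its 4 groups, and p-values were adjusted by Benjamini-Hochberg over all genes tested. A gene was called at an adjusted p under 0.055 and an absolute log2FC of at least 0.58, the study's thresholds. The test gives no SE, so the SE printed with a log2FC is its size divided by the square root of the test's F value. Tissues were compared in 1 fit of 72 libraries. CPM were scaled by TMM, log2 CPM used a prior count of 2, and TPM used the union of exons of each gene as its length. Single members were set against an exact permutation test, two-sided, over the 924 divisions of 12 mice, whose p-values are unadjusted (scipy 1.17.1, Python 3.11.15). Promoter entries came from RefSeq.

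Named genes were the 9 members, the called genes of each list (at most 3 in each direction by p) and, for each called member, the 5 protein-coding genes with the highest correlation. A few genes that this rule names are not reported here. The same mouse gave all 3 tissues by its number in the labels. The tissue comparisons did not use this pairing, except where the mouse was added as a block. Alternatives were limma voom (limma 3.58.1), DESeq2 1.42.0, other scalings, filters and thresholds, the range of the animal numbers in the labels as a covariate, and each mouse left out in turn. Leaving out 2 libraries low in adipocyte markers, or 3 with epididymal transcripts, was chosen after seeing the data. The fits were also run on simulated counts with known changes set in CR20-HFD alone, and the outcome is not reported here. No outlying library was simulated, so those runs do not cover libraries such as that of FED-HFD mouse 23. No pair of libraries within a group was identical.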

Additional observations from a re-analysis of the deposited data

Results flagged for a closer look

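Among 88 combinations of a member, a tissue and a group with 6 mice, 1 mouse stood apart from the other 5 in 9, by Dixon's test of the gap against the group's range. Chance alone gives about 1 in 20 such combinations. In eWAT, 5 of them were FED-HFD mouse 23, which had the lowest adipocyte and the highest macrophage marker sum of the 24 eWAT libraries. Its Slc2a1 was high, at 5.39 log2 CPM against 3.55 to 4.18 in the other 5 mice. Its other 4 values were low, at 4.95 for Slc2a4 (others 7.10 to 7.61), 4.38 for Slc2a8 (4.94 to 5.25), 2.47 for Slc2a10 (lowest 3.49) and -0.099 for Slc2a12 (1.43 to 1.87). CR20-CTRL mouse 5, with the next lowest adipocyte marker sum, had Slc2a4 at 6.95 log2 CPM (others 7.93 to 8.22).

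FED-CTRL mouse 24 had Slc2a3 in eWAT at 3.24 log2 CPM (others 4.03 to 4.30). In pituitary, FED-CTRL mouse 15 had Slc2a5 at 1.45 log2 CPM (others 2.07 to 2.21), from 62 counts. Slc2a12 in the pituitary of CR20-CTRL mouse 48 was at -1.36 log2 CPM (others 0.56 to 0.83), from 7 counts.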

How the results depend on the processing

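No difference between groups that was recomputed reversed. Between liver and eWAT, Slc2a1 and Slc2a8, not called at 0.04 and 0.02, turned to -0.73 each when libraries were scaled by their totals. The median gene stood at -0.94 with that scaling. In eWAT, FED-HFD against FED-CTRL held 1 called member at an absolute log2FC of at least 1 and 3 to 4 with a mouse left out. CR20-HFD against FED-HFD held 0 at that minimum, 1 with no filter, with the animal-number range as covariate, in a fit of the compared groups alone or without the 2 libraries low in adipocyte markers, and 1 to 3 with a mouse left out. The interaction held 1 in DESeq2 and 0 to 1 with a mouse left out. HFD averaged held 2 by limma voom with quality weights, 0 with no filter and 0 to 1 with a mouse left out, and CR20 averaged 0 to 1. In liver, FED-HFD against FED-CTRL held 1 (Slc2a4) by limma voom with or without quality weights, DESeq2 or no filter, and 0 to 1 with a mouse left out. The mice behind these losses and gains stand beside each result, and beyond the alternatives' own construction the cause was not tested. Of the counts of called members recomputed, 711 were scored as the same, 12 as higher and 32 as lower. A small shift in a count was scored as the same. Many of these counts were 0 in comparisons that called few or no genes of any kind, and so could hardly change. Of the single-gene results recomputed, 966 kept their side of the call, 14 gained the call and 38 lost it.

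Over settings other than a mouse left out, the adjusted p ran from 0.001 to 0.0193 for Slc2a3, 9.50e-05 to 0.0724 for Slc2a4, 0.0004 to 0.022 for Slc2a5 and 0.0021 to 0.0567 for Slc2a9 in FED-HFD against FED-CTRL, and from 0.0054 to 0.127 for liver Slc2a4 in the FED offspring. With the mouse as a replicate block, the members called between tissues stayed at 7, 6 and 9, for liver against eWAT, pituitary against eWAT and pituitary against liver. With library totals they were 9, 7 and 8, and at an absolute log2FC of at least 1 they were 7, 4 and 8. Within a tissue, no paired analysis was possible because the groups hold different mice. Without length correction the share of Slc2a2 in liver was 75.3% and that of Slc2a1 in pituitary 46.0%, and with the longest transcript as length the latter was 43.6%. Depth limits Slc2a2 outside liver (under 3 counts in 21 of 24 eWAT and all 24 pituitary libraries), Slc2a12 and Slc2a10 in liver (in 22 and 10 of 24) and Slc2a5 in eWAT (in 2 of 24).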
